A study of Mus musculus with 9 samples.

Results

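The genes of glycolysis and the pentose phosphate pathway were followed in bone marrow-derived macrophages (BMDMs) at rest, after M1 polarization, and after M1 polarization with photobiomodulation (PBM). The set holds 31 genes, chosen by name for glucose and lactate transport, for the steps of glycolysis and for both branches of the pentose phosphate pathway. Their Ensembl identifiers matched 32 of the 55655 rows of each expression table, because Aldoa has an additional row that had an FPKM of at most 1.23 and was left aside. RNA-seq was available for 3 M0, 3 M1 and 3 M1 + PBM libraries. All the cells came from marrow of the femur and tibia of wild type C57BL/6 mice aged 6 to 8 weeks and had been grown with M-CSF at 10 ng/mL for 7 days. M0 cells received nothing further and were not irradiated. M1 cells were given lipopolysaccharide (LPS) and interferon-γ (IFN-γ) for 12 hours in the dark. M1 + PBM cells received the same stimulus and light of an 808-nm laser at 6 mW/cm2 for 7 minutes. These are cultured macrophages outside the injured spinal cord that the study was about, and the study describes the experiment as independently repeated, while the labels do not say whether the libraries of a group came from separate mice.

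Glycolysis splits glucose into pyruvate in the cytosol with a small yield of ATP, and macrophages that meet LPS are known to lean on it, turning much of the pyruvate into lactate that is exported through monocarboxylate transporters. The pentose phosphate pathway branches off after the hexokinase step. Its oxidative branch makes NADPH, which feeds the NADPH oxidase, nitric oxide synthesis and antioxidant defence, and its non-oxidative branch shuttles sugar phosphates between ribose and glycolysis. HIF-1α, which is stabilized in LPS-treated macrophages, is a known activator of many of these genes.

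The values are FPKM, fragments scaled to transcript length and to library depth, so that levels of different genes can be compared per length. Depth, estimated from the steps between low values, was 30780000 to 41910000 fragments per library. M0 stands in a table of its own. Whether it was normalized together with the table of M1 and M1 + PBM is not known, and no test was made across the tables. The macrophage marker sum (7 genes) lay between 1568 and 2452 FPKM in all 9 libraries, and the dendritic, lymphoid and erythroid sums were at most 1.21 FPKM. The neutrophil sum (10 genes) was 13.3 to 26.6 FPKM in M0, 111 to 163 in M1 and 104 to 108 in M1 + PBM. Csf3r made up most of that sum, S100a8 was 1.13 to 2.11 FPKM in M0, 6.9 to 27.2 in M1 and 4.94 to 14.5 in M1 + PBM, Camp was at most 0.381 in M0 and 0.767 to 2.8 in M1, and S100a9 and Ly6g were listed at 0 in all 9 libraries. M0 replicate 3 stood apart from the other M0 libraries: its sum over 8 M1 activation genes was 356 FPKM against 19.9 and 17.2, with 3573 to 3711 in M1, and its sum over 7 stromal genes was 189 FPKM against 6.61 and 5.49. The part of these marker signals in the values below was not tested, and counts against M0 on the deposited scale are given with and without M0 replicate 3. In bulk RNA, fewer cells of a type and less RNA per cell cannot be told apart.

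Between M0 and M1 the genes of the set did not all move in the same direction. Hk2, Hk3 and Pfkfb3 were well above M0 in every M1 library, Tkt, Taldo1, Aldoc, Ldhb and Pgls were well below it, and the enzymes of lower glycolysis overlapped. In this comparison 30 of the 31 genes reached an FPKM of 1 in at least 3 of the 9 libraries, and each of the 30 also did so in at least 3 of the 6 M1 and M1 + PBM libraries, so that none was kept through M0 alone. The background against M0 was not limited in this way: of its 13915 rows only 12238 met the minimum in those 6 libraries. It thus also holds rows kept through M0, which may raise its shares, above all of lower rows, and is not like for like with the genes. The size of this was not tested. The 3 M1 values did not overlap the 3 M0 values for 15 of these 30 genes, against 66.3% of all 13915 rows. Of the 15, 5 were higher in M1 (Hk1, Hk2, Hk3, Pfkfb3 and Rpe), where the background was 15.6%, and 10 were lower (Gpi1, Pfkm, Pfkp, Aldoc, Pfkfb4, Ldhb, Pgls, Rpia, Tkt and Taldo1), where it was 50.6%. With a difference of at least 1 in mean log2(FPKM + 1) added, 3 were higher (background 7.81%) and 5 were lower (background 13.7%). Without M0 replicate 3 the non-overlapping genes were 7 higher (background 18.7%), with Slc2a1 and Pfkl added, and 10 lower (background 57.4%), and with the difference of at least 1 they were 5 higher (background 8.82%) and 4 lower (background 14.6%).

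Scaling mattered for these counts. As deposited, the median difference of M1 minus M0 over all rows was -0.34 on the log2(FPKM + 1) scale and that of the 30 genes was -0.078. After median-of-ratios scaling of the 9 libraries the median of all rows was -0.0073 and that of the 30 genes was 0.36. On that scale 10 of the 30 genes were higher in M1 without overlap (background 28.9%), with Slc2a1, Pfkl, Eno2, G6pdx and Pgd added to the 5 above. By contrast, 6 were lower (Gpi1, Pfkp, Aldoc, Ldhb, Tkt and Taldo1, background 28.1%), while Pfkm, Pfkfb4, Pgls and Rpia overlapped M0. The order of the groups below is therefore given on both scales where they differ. The heatmap of the 31 genes shows the blocks of genes described next.

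**Figure D1:**
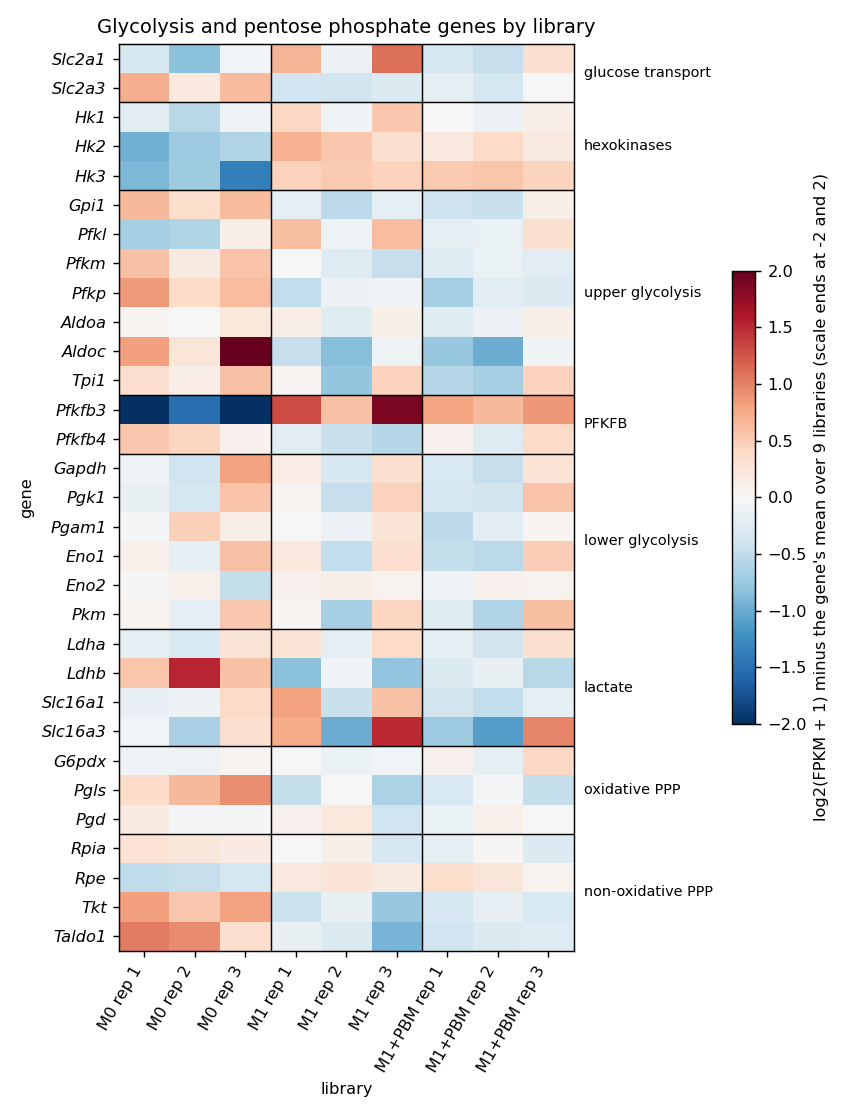
Level of each of the 31 genes (vertical axis, by role) in the 9 libraries (horizontal axis), as log2(FPKM + 1) minus the gene's mean over the 9 libraries, with colours ending at -2 and 2. The Hk2, Hk3 and Pfkfb3 rows are blue in the 3 M0 libraries, Tkt and Taldo1 are red there, and within M1 and M1 + PBM many glycolysis rows are palest or bluest in replicate 2 and reddest in replicate 3.

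Slc2a1 (ENSMUSG00000028645), which encodes the glucose transporter GLUT1, had the higher FPKM of both glucose transporters in the set. The FPKM of Slc2a1 was 15.5, 10.5 and 18.8 in the M0 libraries, 31.6, 17.9 and 42.9 in the M1 libraries and 15.3, 13.9 and 24.7 in the M1 + PBM libraries. The M1 values spread widely and the lowest of them lay below the highest M0 value, so the groups overlapped, with a mean difference of 0.95 in log2(FPKM + 1), which was 1.12 without M0 replicate 3 and 1.36 after median-of-ratios scaling. Slc2a3, which encodes the high-affinity transporter GLUT3, had an FPKM of at most 1.36 in every library and was not tested. Its FPKM was 1.36, 0.616 and 1.21 in M0 and 0.0872, 0.0947 and 0.174 in M1, without overlap.

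The hexokinases, which trap glucose in the cell as glucose phosphate, were higher in M1 for all 3 genes, without overlap with M0 on both scales. The FPKM of Hk2 was 10.1, 12.1 and 13.3 in the M0 libraries, 34.2, 30.6 and 26.1 in the M1 libraries and 24, 27.4 and 23.6 in the M1 + PBM libraries. Every M1 and M1 + PBM value of Hk2, the hexokinase that is often induced with glycolysis, lay above every M0 value, with a mean of 11.8 ± 1.6 in M0 and 30.3 ± 4.05 in M1 (SD, n = 3 libraries each) and a difference of 1.28 in log2(FPKM + 1). The FPKM of Hk3 was 112, 127 and 80.2 in the M0 libraries, 287, 300.3 and 288 in the M1 libraries and 301, 305 and 283 in the M1 + PBM libraries. Hk3, the hexokinase of myeloid cells, made up most of the hexokinase FPKM in every library and was nearly level within M1, with a mean of 292 ± 7.23, against 106 ± 23.9 in M0 (SD, n = 3 libraries each). Its difference was 1.47, and 1.29 without M0 replicate 3, its lowest library. Hk1, the broadly expressed hexokinase, differed less, with 8.53 to 12.1 FPKM in M0 and 12.4 to 19.3 in M1, which left a gap between the groups of less than 1 FPKM.

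Hk3 took 84.1, 86 and 76 percent of the hexokinase FPKM in M0, 84.7, 87.5 and 86.4 percent in M1 and 89, 88.6 and 88.2 percent in M1 + PBM. Shares of this kind lie within a library and do not depend on how libraries were scaled. The share of Hk3 overlapped between M0 and M1, and it was slightly higher in each M1 + PBM library than in each M1 library. The share of Hk2 was 10.1, 8.93 and 7.82 percent in M1 and 7.11, 7.96 and 7.35 percent in M1 + PBM, and these overlapped.

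Pfkfb3 (ENSMUSG00000026773) had the largest difference between M1 and M0 of the 31 genes. It encodes the kinase that makes the strongest allosteric activator of phosphofructokinase. The FPKM of Pfkfb3 was 3.8, 6.25 and 2.76 in the M0 libraries, 50.4, 30.0 and 75.5 in the M1 libraries and 35, 31.4 and 36.6 in the M1 + PBM libraries. Every stimulated library lay far above every M0 library, with a mean of 4.27 ± 1.79 in M0 and 51.9 ± 22.8 in M1 (SD, n = 3 libraries each), a ratio of means of 12.2 and a difference of 3.29 in log2(FPKM + 1). Its relative Pfkfb4, a bifunctional enzyme with more phosphatase activity that can also lower that activator, went the other way. The FPKM of Pfkfb4 was 7.61, 6.96 and 5.3 in the M0 libraries, 4.05, 3.38 and 2.99 in the M1 libraries and 5.26, 3.96 and 6.7 in the M1 + PBM libraries. The M1 libraries lay below the M0 libraries as deposited, with a difference of -0.76, but on the median-of-ratios scale the difference was -0.40 and the groups overlapped. Pfkfb3 was 33.3, 47.3 and 34.2 percent of the summed FPKM of both genes in M0, 92.6, 89.9 and 96.2 percent in M1 and 86.9, 88.8 and 84.5 percent in M1 + PBM. The balance between both genes thus parted M0 from M1 without overlap, and every M1 + PBM library lay below every M1 library.

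The subunits of phosphofructokinase, the committed step of glycolysis, also differed in their proportions. The liver-type subunit Pfkl was 6.26, 6.57 and 11.6 FPKM in M0 and 16.5, 9.71 and 16.6 in M1, which overlapped through M0 replicate 3. The muscle-type Pfkm was 5.37, 3.78 and 5.29 in M0 and 3.25, 2.54 and 2.08 in M1, and the platelet-type Pfkp was 9.5, 6.44 and 7.87 and 3.11, 4.34 and 4.5. Pfkm and Pfkp were lower in every M1 library as deposited, and on the median-of-ratios scale Pfkm overlapped. Pfkl made up 29.6, 39.1 and 46.8 percent of the phosphofructokinase FPKM in M0 and 72.2, 58.5 and 71.7 percent in M1, without overlap, and was 63.8, 58.2 and 67.5 percent in M1 + PBM.

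Among the other enzymes of upper glycolysis, Aldoa, the main aldolase, had the highest FPKM. The FPKM of Aldoa was 273, 262 and 307 in the M0 libraries, 289.9, 223 and 285 in the M1 libraries and 222, 242 and 285 in the M1 + PBM libraries. The groups overlapped and the mean difference between M1 and M0 was -0.085. The FPKM of Aldoc was 4.14, 2.45 and 12 in the M0 libraries, 1.12, 0.609 and 1.71 in the M1 libraries and 0.723, 0.468 and 1.77 in the M1 + PBM libraries. Aldoc, an aldolase best known from brain, was low in the stimulated cells and higher in every M0 library, with a difference of -1.55 that was -1.01 without M0 replicate 3, where it was highest. Gpi1, the isomerase that follows hexokinase, was 48 to 59.8 FPKM in M0 and 25.7 to 33.2 in M1, without overlap on both scales. Tpi1, which interconverts the triose phosphates, was 60.4 to 82.7 in M0 and 31.5 to 76.2 in M1 and overlapped.

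All 6 genes of lower glycolysis overlapped between M0 and M1 as deposited, and Pkm had the highest mean FPKM of them in each group. The FPKM of Pkm was 302, 252 and 418 in the M0 libraries, 295, 181 and 385 in the M1 libraries and 243, 189.6 and 438 in the M1 + PBM libraries. Pkm, the pyruvate kinase that makes pyruvate and ATP, had a wide range within each group, and its mean was 324 ± 85.3 in M0 and 287 ± 102 in M1 (SD, n = 3 libraries each). Gapdh, which oxidizes the triose phosphate, was 141 to 339 FPKM over the 9 libraries, and Pgk1, the first ATP-making kinase of the pathway, was 95.9 to 198. Pgam1, which moves the phosphate group, was 57.3 to 116. Eno1 and Eno2, the enolases, were 43.7 to 96.9 and 3.19 to 5.37, and Eno2 was higher in M1 without overlap after median-of-ratios scaling alone. Several of these levels carry uncertainty from processed pseudogene copies, since near-identical transcripts share reads: Gapdh has 174 such copies in GENCODE, whose summed FPKM reached 144% of that of Gapdh in 1 library, and the copies of Pgam1, Eno1 and Pgk1 reached 87.7%, 61.7% and 26.3%. Copies of Pkm reached 4.83% and those of Ldha and Aldoa less than 1% of their gene. Gapdh, often used as a reference gene, varied from 147 to 339 FPKM within M0.

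At the lactate end, Ldha, the lactate dehydrogenase subunit that favours lactate, was the leading gene. The FPKM of Ldha was 80.4, 73.7 and 109 in the M0 libraries, 111, 79.8 and 121 in the M1 libraries and 79.4, 70.7 and 114 in the M1 + PBM libraries. M1 and M0 overlapped, with a mean difference of 0.24. Ldhb, the subunit that favours the reverse reaction, was low in the stimulated cells. The FPKM of Ldhb was 3.55, 7.84 and 3.65 in the M0 libraries, 0.745, 1.93 and 0.79 in the M1 libraries and 1.54, 1.79 and 1.1 in the M1 + PBM libraries. The copy of Ldhb held at most 20.3% of its FPKM. Each M1 and M1 + PBM value of Ldhb lay below each M0 value, with a difference of -1.45 in M1, although at such low FPKM the log2(FPKM + 1) scale understates the change. Ldha accordingly made up 95.8, 90.4 and 96.8 percent of the lactate dehydrogenase FPKM in M0 and 99.3, 97.6 and 99.3 percent in M1, without overlap. The lactate exporters Slc16a1 (MCT1) and Slc16a3 (MCT4) overlapped between M0 and M1, with 2.95 to 4.81 and 2.26 to 6.72 FPKM for Slc16a1 and 4.24 to 9.3 and 3.15 to 22.2 for Slc16a3.

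In the oxidative branch of the pentose phosphate pathway, both dehydrogenases overlapped between M0 and M1 as deposited. The FPKM of G6pdx was 72.5, 70.8 and 79.5 in the M0 libraries, 76.8, 69.6 and 73.4 in the M1 libraries and 80.8, 67.5 and 102 in the M1 + PBM libraries. For G6pdx, the glucose phosphate dehydrogenase that opens the branch, M0 and M1 overlapped as deposited with a difference of -0.019, and M1 was higher without overlap, by 0.42, after median-of-ratios scaling. Pgd, the dehydrogenase that makes the other NADPH, was 71.1 to 83 FPKM in M0 and 55.4 to 84.5 in M1. The FPKM of Pgls was 9.48, 11.8 and 14.5 in the M0 libraries, 4.84, 7.13 and 4.22 in the M1 libraries and 5.56, 6.91 and 4.81 in the M1 + PBM libraries. Pgls, the lactonase between both dehydrogenases, was lower in each M1 library as deposited (-1.02), but the difference was -0.88 without M0 replicate 3 and -0.63 with overlap on the other scale.

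In the non-oxidative branch, Tkt and Taldo1 were lower after stimulation. The FPKM of Tkt was 63.3, 52.1 and 63 in the M0 libraries, 26.1, 32.1 and 20.6 in the M1 libraries and 27.8, 31.5 and 28.5 in the M1 + PBM libraries. The FPKM of Taldo1 was 139, 131 and 85.5 in the M0 libraries, 60.6, 54.7 and 34.8 in the M1 libraries and 51.2, 54.9 and 56.4 in the M1 + PBM libraries. For Tkt, the transketolase, and Taldo1, the transaldolase, which together return sugar phosphates to glycolysis, every M1 and M1 + PBM library lay below every M0 library on both scales. The ratio of the M0 mean to the M1 mean was 2.26 for Tkt and 2.37 for Taldo1, with differences of -1.17 and -1.23 in log2(FPKM + 1). Rpe, the ribulose phosphate epimerase, was the exception in this branch. The FPKM of Rpe was 8.03, 8.37 and 9.03 in the M0 libraries, 13.8, 14.4 and 13.6 in the M1 libraries and 15.4, 14.2 and 12.5 in the M1 + PBM libraries. Each stimulated library lay above M0, and the M1 mean of 13.9 ± 0.445 stood against 8.48 ± 0.51 in M0 (SD, n = 3 libraries each). Rpia, the ribose phosphate isomerase, was low, with 1.84 to 2.08 FPKM in M0 and 1.0 to 1.73 in M1, without overlap as deposited and with overlap on the other scale. Of the summed FPKM of Tkt, Taldo1, G6pdx and Pgd, the share of Tkt and Taldo1 was 56.6, 56.3 and 49.7 percent in M0, 35.9, 36 and 30.1 percent in M1 and 34.9, 37.1 and 32.6 percent in M1 + PBM. The M1 shares were below all the M0 shares, with or without M0 replicate 3, and overlapped those of M1 + PBM. The plots of single genes and of shares within a library show these levels side by side.

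**Figure D2:**
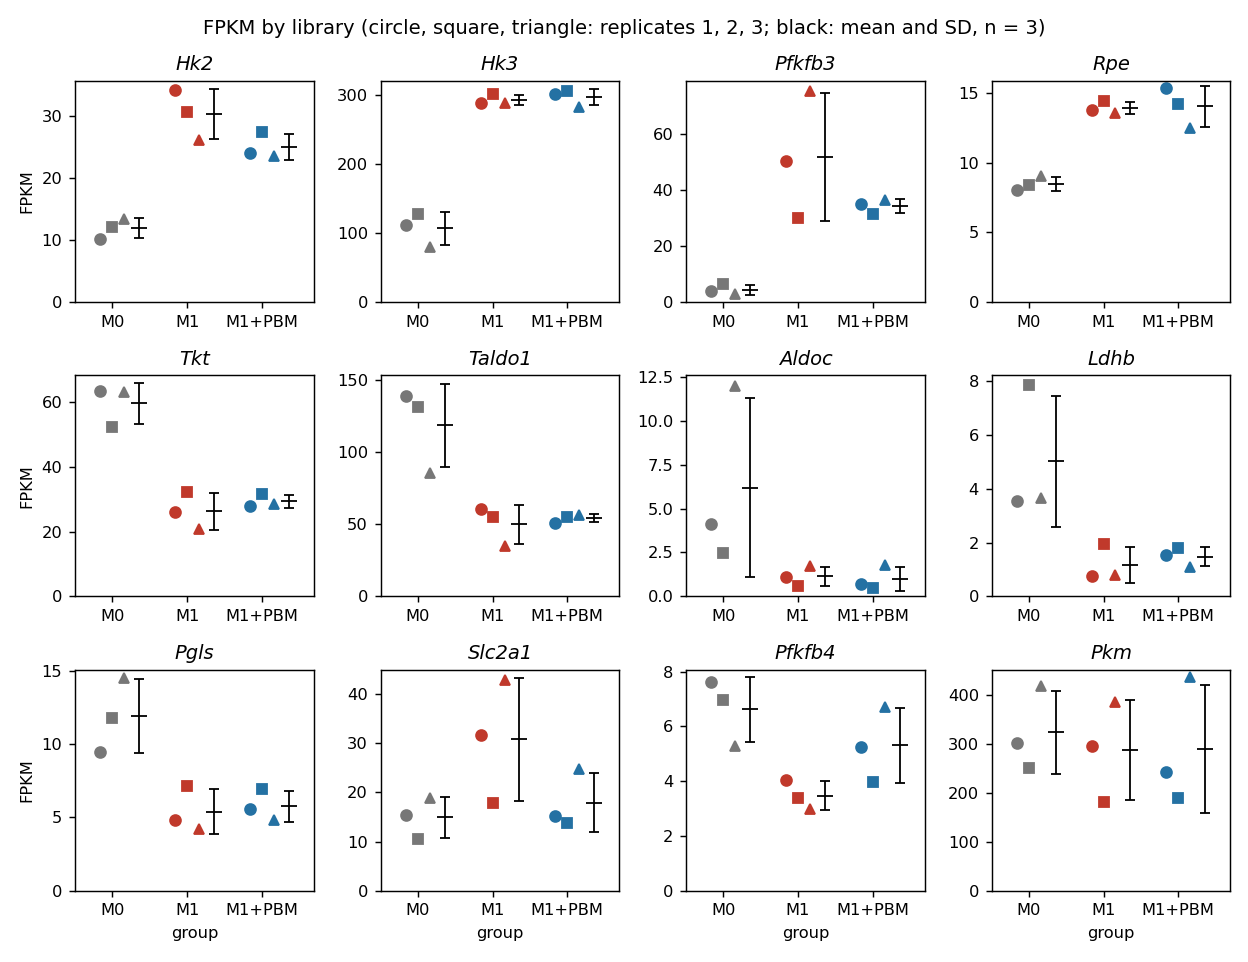
FPKM (vertical axis, from 0) of 12 genes in the M0, M1 and M1 + PBM libraries (horizontal axis). Symbols are the 3 replicates of a group and the bars are the mean and SD, and Pfkfb3 stands out with M0 values of 2.76 to 6.25 FPKM under M1 values of 30.0 to 75.5 FPKM.

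**Figure D3:**
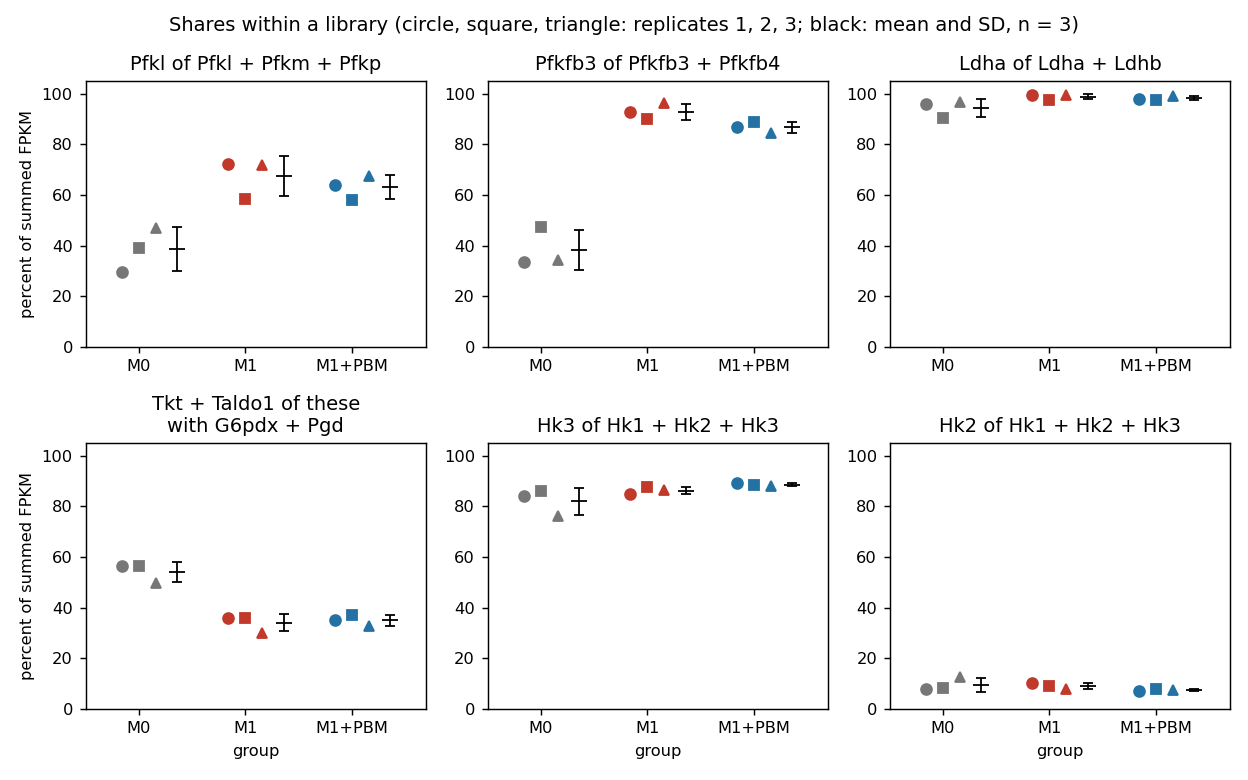
Shares of summed FPKM within a library (vertical axis, percent) by group (horizontal axis), with the 3 replicates as symbols and the mean and SD as bars. The Pfkl and Pfkfb3 shares sit higher in all M1 libraries than in all M0 libraries, and the share of Tkt and Taldo1 sits lower.

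Of the 6 shares computed, 4 did not overlap between M1 and M0 and 2 did not overlap between M1 + PBM and M1. The shares were chosen after the values were seen and are a description without a test. M1 + PBM was set against the same M0 libraries as M1, so both comparisons share them. For M1 + PBM, 14 of the 30 genes did not overlap M0 (background 62.2%), with Hk2, Hk3, Pfkfb3 and Rpe higher (4 genes, background 15.9%) and 10 lower (background 46.2%). Without M0 replicate 3, 6 genes were higher (background 19.2%) and 11 were lower (background 54.3%). The genes whose M1 values differed from M0 by at least 1 in log2(FPKM + 1) without overlap can be set side by side. The differences of M1 and then of M1 + PBM from M0 were 3.29 and 2.8 for Pfkfb3, 1.28 and 1.02 for Hk2. For Hk3 they were 1.47 and 1.5, for Tkt -1.17 and -0.995, and for Taldo1 -1.23 and -1.09. For Aldoc they were -1.55 and -1.68, for Ldhb -1.45 and -1.22, and for Pgls -1.02 and -0.93. Hk3 and Aldoc thus lay farther from M0 with PBM and the others nearer to it. For Slc2a1, which overlapped M0, the differences were 0.95 and 0.24.

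The comparison of M1 + PBM with M1 asks what the light changed in stimulated cells, and it was tested with limma on log2(FPKM + 1), where the changes of genes with low FPKM are understated. Of the 31 genes 30 passed the minimum (3 or more of the 6 libraries with an FPKM of 1 or above), Slc2a3 being the exception, and 12238 rows were tested in all. Pfkfb4 was higher with PBM, and it was the only gene of the set with an unadjusted p of at most 0.05 (1 of 30, background 4.44%). In that direction the background was 2.99%, and 0 of 30 genes were lower by the same rule (background 1.45%). The mean FPKM (± SD, n = 3 libraries each) of Pfkfb4 was 3.47 ± 0.536 in M1 and 5.3 ± 1.37 with PBM, which is a log2 fold change of 0.48 ± 0.18 (standard error). Its p was 0.0357 in limma and 0.90 after adjustment, and 0.20 in the exact permutation test, where 3 libraries against 3 cannot go below 0.1. It was higher with PBM in each of the 3 replicates, by 0.31, 0.18 and 0.95, yet M1 replicate 1 lay above M1 + PBM replicate 2.

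With the study's fold threshold added, an absolute log2 change of 1 or more, 0 of 30 genes were called (background 0.261%), and 0 of 30 had an adjusted p under 0.05 (background 0.00817%) in limma. The groups of M1 and M1 + PBM overlapped for all 30 genes, where 11% of all rows did not overlap. Of the 30 log2 fold changes 19 were below 0, against 34.4% of all rows, and their median was -0.075 against 0.058 for all rows. After median-of-ratios scaling 24 of 30 were below 0 (50.6% of all rows), with a median of -0.15 against -0.0023 for all rows, and there the 1 gene of 30 with an unadjusted p of at most 0.05 (background 4.33%) was Hk2 (log2 fold change -0.34) in place of Pfkfb4.

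M1 and M1 + PBM libraries with the same replicate number were next treated as pairs, although the labels do not state what such libraries shared. That they were paired is not shown by these data, and the blocked p-values below rest on it. Limma with the number as a blocking term gave 4 of 30 genes an unadjusted p of at most 0.05 (background 8.07%). Of the 4 genes, 3 were lower (background 3.24%) and 1 was higher (background 4.84%). Slc2a1 had the smallest p of the 4. Its mean FPKM (± SD, n = 3 libraries each) was 30.8 ± 12.5 in M1 and 18 ± 5.92 with PBM, and the log2 change was -1.01, -0.35 and -0.77 in replicates 1 to 3. All 3 changes were downward. The fold change of -0.71 (log2) had a standard error of 0.35 without the block and 0.14 with it. The p in limma was 0.0857 without the block and 0.0051 with it, and the exact permutation p was 0.20. Slc2a1 kept an unadjusted p of at most 0.05 with the block when any 1 of the 3 pairs was left out.

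The lactate exporter Slc16a1 was the next. The FPKM of Slc16a1 was 2.95, 3.08 and 4.81 in the M0 libraries, 6.72, 2.26 and 5.66 in the M1 libraries and 2.45, 2.16 and 2.92 in the M1 + PBM libraries. M1 replicates 1 and 3 lay above all the M1 + PBM libraries, while M1 replicate 2 was as low as they were. Its log2 fold change was -0.66, with changes of -1.16, -0.046 and -0.77 in replicates 1 to 3, and limma gave p = 0.0359 with the block and 0.0823 without it (exact permutation p = 0.30). Hk1 had a log2 fold change of -0.28 (limma p = 0.0466 with the block and 0.156 without it, exact permutation p = 0.30), and Pfkfb4 kept a limma p of 0.0416 with the block. The adjusted p was 0.577 for these 4 genes with the block, so none passed the correction. Slc16a1, Hk1 and Pfkfb4 each had an unadjusted p of at most 0.05 with the block without pair 2, and none of these 3 genes had one without pair 1 or without pair 3.

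Slc16a3, the exporter of glycolytic cells, showed how far the replicates differed. The FPKM of Slc16a3 was 6.95, 4.24 and 9.3 in the M0 libraries, 12.8, 3.15 and 22.2 in the M1 libraries and 3.97, 2.85 and 15.2 in the M1 + PBM libraries. Replicate 3 was high and replicate 2 low in both stimulated groups. Its log2 fold change of -0.70 had a 95% interval of -2.55 to 1.15 without the block and -1.41 to 0.015 with it. Pfkfb3 had -0.49 (95% interval -1.24 to 0.26, limma), with changes of -0.51, 0.066 and -1.02 in replicates 1 to 3, which did not share a sign.

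By role, the 6 genes of lower glycolysis all had log2 fold changes below 0, from -0.28 (Pgam1) to -0.0093 (Pkm), although Pkm and Pgk1 were above 0 after quantile normalization. Their median was -0.12, and none had an unadjusted p of at most 0.05 in limma with or without the block. The 3 hexokinases had -0.28 (Hk1), -0.26 (Hk2) and 0.021 (Hk3), and Hk3 was below 0 after median-of-ratios scaling. In upper glycolysis 5 of 7 values were below 0, with a median of -0.13 and the lowest value of -0.37 for Pfkl, and Gpi1 and Pfkm, the others, were also below 0 after median-of-ratios scaling. The 3 genes of the oxidative branch lay between 0.028 (Pgd) and 0.16 (G6pdx), with Pgd below 0 after median-of-ratios scaling. In the non-oxidative branch 3 of 4 genes were above 0, up to 0.17 for Tkt, of which Rpe was below 0 after either scaling. Without the block, the 95% intervals of the difference were narrowest for Eno2 (-0.28 to 0.16), Hk3 (-0.21 to 0.25) and Rpe (-0.24 to 0.26). For Pkm the interval was -0.94 to 0.92 without the block and -0.31 to 0.29 with it. The plot of log2 fold changes shows the intervals of all 30 genes.

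**Figure D4:**
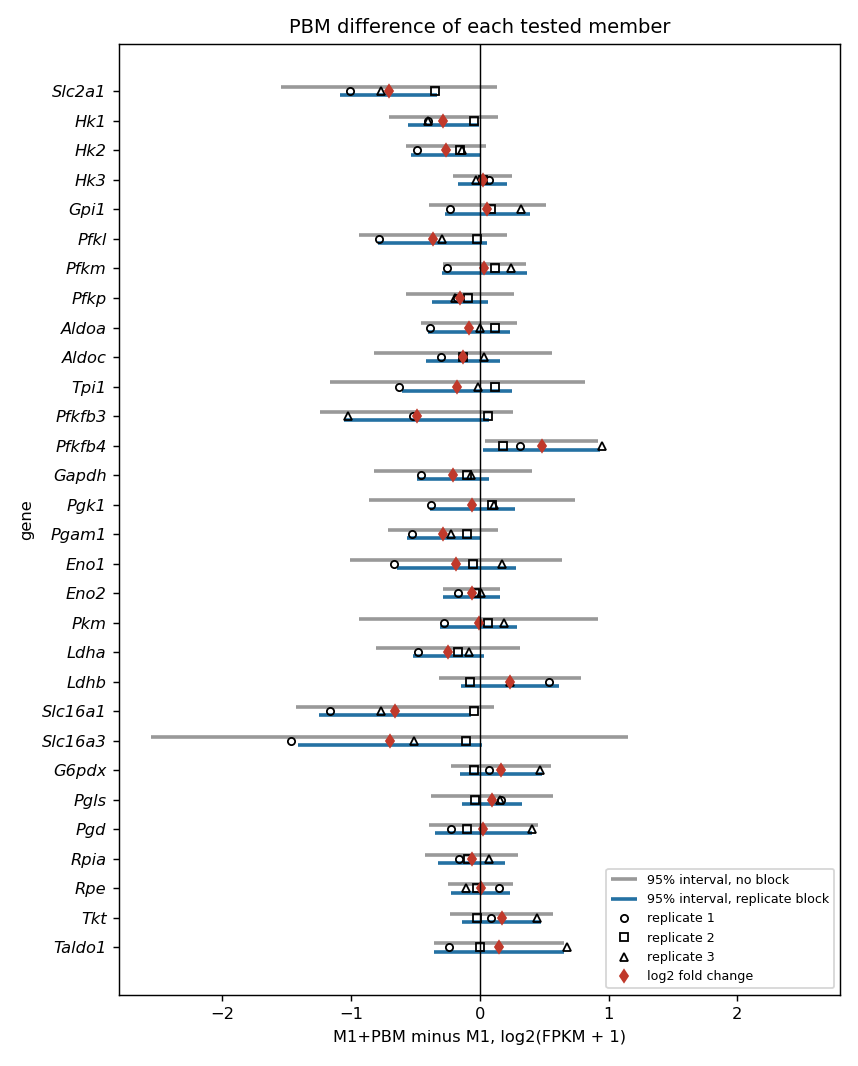
Difference of M1 + PBM minus M1 in log2(FPKM + 1) (horizontal axis) for the 30 tested genes (vertical axis). Diamonds are log2 fold changes, open symbols the change in each replicate, and lines 95% intervals from limma without (grey) and with (blue) the replicate block, and the Slc2a1 interval with the block runs from -1.08 to -0.33.

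For most of these genes the replicate number had a larger share of the variation than the light, as it had in most rows. The number has more levels than the light, so its share tends to be larger even where neither has an effect. The values of all rows are therefore given beside those of the genes. Over the 6 M1 and M1 + PBM libraries the median share of the sum of squares of log2(FPKM + 1) was 59.2% for the replicate number and 10.9% for PBM in the 30 genes, and 52.5% and 14.5% in all rows. The share of the replicate number was above that of PBM in 27 of 30 genes, against 73.8% of all rows, and Slc16a1, Hk2 and Pfkfb4 were the others. It reached 95.8% for Pkm, 92.9% for Aldoc and 91.7% for Pgk1.

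Replicate 3 was the highest and replicate 2 the lowest in both M1 and M1 + PBM for 11 of 30 genes (36.7%), where 9.08% of all rows had that order. These were Slc2a1, Hk1, Aldoc, Tpi1, Pfkfb3, Gapdh, Pgk1, Eno1, Pkm, Ldha and Slc16a3, which stand in transport, in both stages of glycolysis and at the lactate step, and none of them in the pentose phosphate pathway. The reverse order was found for 2 of 30 (6.67%), Pgls and Rpia, both of the pentose phosphate pathway, against 13.8% of all rows. Replicate 3 held 7.04 times the FPKM of replicate 2 for Slc16a3 in M1 and 5.35 times in M1 + PBM. For Tpi1 the ratios were 2.42 and 2.2, and for Pkm 2.13 and 2.31. The stromal marker sum had the same order in both groups, with 11.7, 8.6 and 12.8 FPKM in M1 and 21.4, 3.34 and 26.7 in M1 + PBM, as 3 of its 7 markers did. The dendritic sum also had it, at 0.594 to 1.21 FPKM. Of the macrophage markers 2 of 7 (Itgam and Fcgr1) had the order, and of the M1 activation markers 1 of 8 (Cxcl10), though the sums of these lists did not. In the neutrophil, lymphoid and erythroid lists 0 markers had it. The part of these signals in the order was not tested. What the libraries of a replicate number shared is not stated in the labels, and its part in these levels was not tested.

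**Figure D5:**
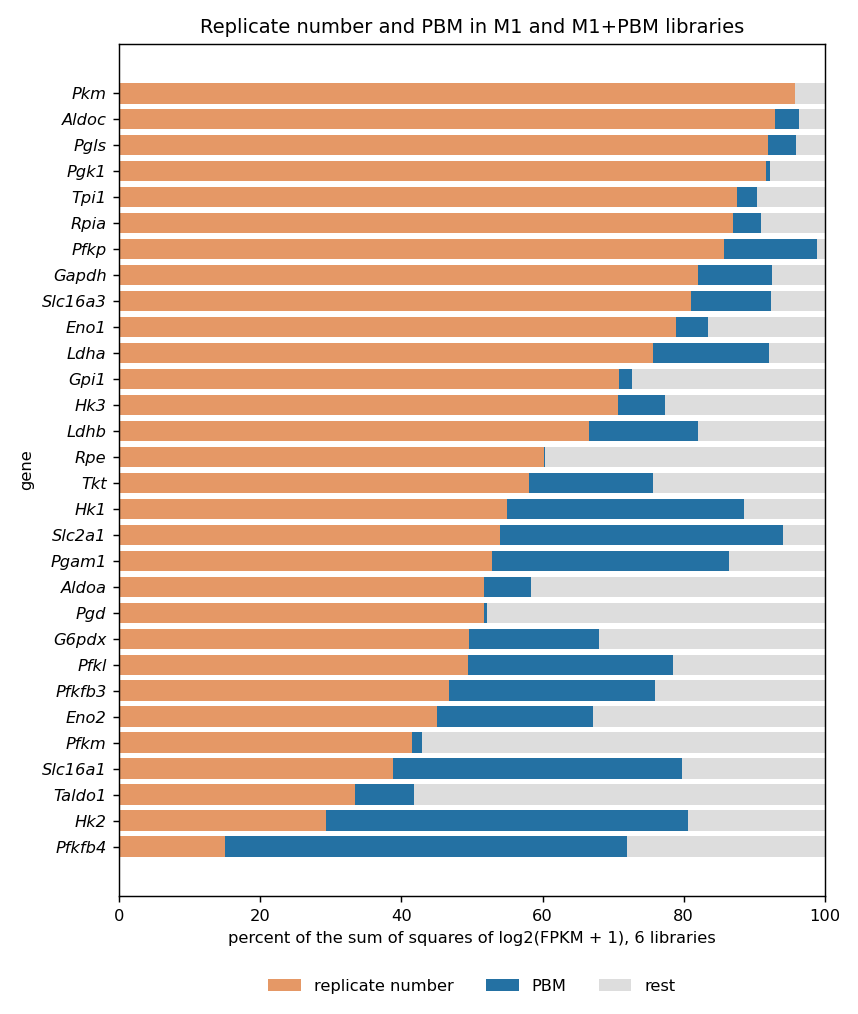
Share of the sum of squares of log2(FPKM + 1) over the 6 M1 and M1 + PBM libraries (horizontal axis, percent) for each of the 30 tested genes (vertical axis), split into replicate number, PBM and the rest. Replicate number, which has more levels than PBM and so tends to a larger share, takes the longest segment in most genes. PBM exceeds it for Pfkfb4, Hk2 and Slc16a1.

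The start regions of Slc2a1, Slc16a1, Pfkfb3 and Pfkfb4 are shown. Slc2a1 and Slc16a1 are the transporters that were lower with PBM by unadjusted p in the blocked fit, without passing the correction (limma adjusted p = 0.577). Hk1, lower by the same rule, is not shown. Pfkfb3 and Pfkfb4 are the genes whose balance parted the groups. The sequences are the windows from 250 bases before to 50 bases after a start site in RefSeq on GRCm38.p6, 5′ to 3′ on the strand of the gene. Capitals mark ACGTG, a form of the core letters of a hypoxia response element, on either strand (CACGT on the strand shown). The other form of the core, GCGTG, was not searched, so a window without a match can still hold a core. Positions give the first base of a match on the strand shown, counted from 1 at the start site with negative numbers before it. The Slc2a1 window lies at chr4:119108495-119108794 on the plus strand with a match at -36. The Slc16a1 window lies at chr3:104638414-104638713 on the plus strand with matches at -200, -199 and 21, and the matches at -200 and -199 overlap in CACGTG, which reads the same on both strands. Pfkfb3 has windows at chr2:11553880-11554179 (match at -60) and chr2:11502041-11502340 (overlapping matches at -53 and -52), both on the minus strand. The Pfkfb4 window at chr9:108991652-108991951 on the plus strand holds no match to ACGTG, though it holds GCGTG.
Slc2a1: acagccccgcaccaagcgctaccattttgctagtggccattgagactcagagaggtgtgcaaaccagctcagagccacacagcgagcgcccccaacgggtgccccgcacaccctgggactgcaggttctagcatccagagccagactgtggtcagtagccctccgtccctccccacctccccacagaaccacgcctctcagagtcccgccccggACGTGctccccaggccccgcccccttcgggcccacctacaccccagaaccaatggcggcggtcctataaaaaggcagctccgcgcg
Slc16a1: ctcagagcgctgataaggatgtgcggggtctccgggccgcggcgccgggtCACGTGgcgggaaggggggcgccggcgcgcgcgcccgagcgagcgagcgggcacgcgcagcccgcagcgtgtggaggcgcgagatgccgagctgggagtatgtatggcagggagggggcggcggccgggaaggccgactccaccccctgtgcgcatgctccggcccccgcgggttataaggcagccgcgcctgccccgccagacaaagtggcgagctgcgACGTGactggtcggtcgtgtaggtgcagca
Pfkfb3, upstream start: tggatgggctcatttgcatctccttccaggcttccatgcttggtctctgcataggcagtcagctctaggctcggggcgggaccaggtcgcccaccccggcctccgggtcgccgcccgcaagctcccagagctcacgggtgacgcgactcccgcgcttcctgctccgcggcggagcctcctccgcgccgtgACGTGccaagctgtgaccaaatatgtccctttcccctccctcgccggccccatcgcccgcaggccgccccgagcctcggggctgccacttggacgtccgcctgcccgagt
Pfkfb3, downstream start: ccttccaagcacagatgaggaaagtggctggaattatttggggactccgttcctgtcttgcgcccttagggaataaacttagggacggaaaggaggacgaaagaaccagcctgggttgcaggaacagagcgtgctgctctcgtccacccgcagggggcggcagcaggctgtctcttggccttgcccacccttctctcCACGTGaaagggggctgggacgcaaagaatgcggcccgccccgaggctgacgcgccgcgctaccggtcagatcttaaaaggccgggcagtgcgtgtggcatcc
Pfkfb4: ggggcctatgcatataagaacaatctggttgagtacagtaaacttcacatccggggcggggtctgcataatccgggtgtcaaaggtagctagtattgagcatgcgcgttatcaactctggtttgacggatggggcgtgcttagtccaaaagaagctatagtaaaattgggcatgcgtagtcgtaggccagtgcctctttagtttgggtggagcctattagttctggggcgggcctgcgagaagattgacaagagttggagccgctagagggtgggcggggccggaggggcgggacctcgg

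RefSeq windows matched 30 of the 31 genes, with 43 windows, and Slc2a3 was not matched. ACGTG on either strand was present in 19 of the 43 windows (44.2%), against 6447 of 32851 windows of all genes (19.6%). By gene it was present in at least 1 window for 16 of 30 (53.3%), against 21.8% of all 27025 genes. The 30 genes had 43 windows, more per gene than all genes had, and more windows raise a share counted by gene. CACGTG, the palindrome that holds overlapping matches on both strands, was in 4 of 43 windows (9.30%), against 7.15%. The windows were not matched for base composition, and a match is only a run of letters. Among the 11 genes in which replicate 3 was the highest and replicate 2 the lowest, Eno1 and Tpi1 had no ACGTG in any window. The others had it in at least 1 window, and GCGTG was not counted. These 11 genes were grouped by their values in these data, and the same listing was not made for the other genes. A link between ACGTG and the replicate order was not tested.

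Other genes of sugar metabolism were counted from 3 lists by the same limma rule of an unadjusted p of at most 0.05. Of 26 further isoenzymes and transporters 10 were tested, 1 was higher with PBM and 0 were lower (background 4.44% in either direction). That gene was Slc16a7, which encodes the monocarboxylate transporter MCT2. In M0 its FPKM was 4.0, 2.02 and 3.41, in M1 it was 0.796, 0.534 and 0.703 and it was 1.38, 1.1 and 1.09 in M1 + PBM. M1 was lowest and the groups did not overlap, but Slc16a7 passed the minimum through M1 + PBM alone, so its log2 fold change of 0.38 (limma p = 0.0117, adjusted p = 0.90, exact permutation p = 0.10) is given as a value and not as support.

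Of 23 regulators and branch enzymes 16 were tested, 1 was lower with PBM (background 1.45%), which was Hif1a, and 0 were higher (background 2.99%). The FPKM of Hif1a was 11.3, 10.4 and 16.7 in M0, 49.7, 45.5 and 44.2 in M1 and 20.5, 24.7 and 24.8 in M1 + PBM, with every M1 library above the other 6 libraries. Its log2 fold change was -0.97 (95% interval -1.24 to -0.70, limma adjusted p = 0.38), below 0 in all 3 replicates, and it did not pass the correction. Of its sum of squares, 0.293% went with the replicate number. The shares of a gene add up to its whole, so a larger PBM share leaves less for the replicate number. The part of Hif1a in the replicate order of other genes was not tested. Of 18 HIF-1 targets outside the pathway 11 were tested and 0 were called in limma (background 4.44%). Below 0 were 7 of the 11 log2 fold changes, against 34.4% of all rows, and their median was -0.11 against 0.058 for all rows. The share of all rows rose to 50.6% after median-of-ratios scaling, for which these targets were not counted.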

How the data were processed

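Expression was deposited by the authors as FPKM, in 2 tables: M0 stands in 1 of them, and M1 and M1 + PBM stand together in the other. Per the labels, libraries were strand-specific, and the submitters' processing notes name Bowtie 0.12.2 and the mm9 build. The paper names Cufflinks for the expression values. The annotation is not given in the sources used here. All 55655 rows of each table were used, 320 of them assembled loci named MSTRG, and symbols were taken from GENCODE M21 for 55154. Members and lists were chosen with earlier results of these data known.

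Depth was estimated from steps between low values in genes with a single transcript. Since only 36.8% to 41.5% of these values were whole within 0.05 fragments, against 10% for evenly spread values, counts could not be rebuilt and no count model was fitted. M1 and M1 + PBM were compared by limma 3.58.1 in R 4.3.3 (lmFit, eBayes with trend) on log2(FPKM + 1), over the 12238 rows in which 3 or more of the 6 libraries had an FPKM of 1 or above, with Benjamini-Hochberg adjustment over all of them. Single genes also had a two-sided exact permutation test (scipy 1.17.1). M0 and M1 were compared without a test, by overlap, over the 13915 rows in which 3 or more of the 9 libraries did. Deviations from the group mean correlated across genes between same-numbered M1 and M1 + PBM libraries, with r of 0.157, 0.469 and 0.462, against -0.491 to 0.0328 between different numbers, so a fit with the replicate number as a block was added. Deviations within a group cancel out, so positive values for the same number push those for different numbers down. The contrast is partly built in and does not show that the libraries were paired. Copies of a gene were GENCODE pseudogene transcripts aligned to it by minimap2 2.31-r1302 with at least 90% identity over at least 50% of the copy and 200 bases. Values in each library are given for genes with an unadjusted p of at most 0.05, for those differing from M0 by at least 1 in mean log2(FPKM + 1) without overlap, and for the gene of highest FPKM in each of 8 role groups. Slc16a1, Slc16a3, Slc2a3, Rpe, Pfkl, Pfkm and Pfkp were added after their values were seen. The fit was first tested on simulated data.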

Additional observations from a re-analysis of the deposited data

How the results depend on the processing

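The alternatives for M1 + PBM against M1 changed the scaling (median-of-ratios or quantile), the pseudocount (0.1), the minimum (none, or a mean FPKM of at least 5), the variance (no trend, or no moderation), the block, or the libraries (leaving out each in turn). The count of genes with an unadjusted p of at most 0.05, 1 of 30, became 0 with a mean FPKM of at least 5 (23 genes tested). Pfkfb4, the gene called in the main fit, did not reach that minimum and was not tested there, so this count says nothing about it. The count also became 0 without moderation of the variance. It ranged from 0 (without M1 + PBM replicate 1) to 6 when 1 library was left out, and the 6 were found without M1 replicate 2 (8.9% of all rows). Of these, Slc2a1, Hk1, Pfkl, Pfkfb3 and Slc16a1 were lower with PBM and Ldhb was higher. Without that library Ldhb reached an FPKM of 1 in M1 + PBM alone, so it is listed and is not support. By the study's thresholds the count ranged from 0 to 2, and Slc2a1 and Slc16a1 passed without M1 replicate 2 (0.564% of all rows). With the replicate block 4 genes had such a p. Further blocked fits were chosen after the data were seen, and gave 9 genes with median-of-ratios scaling (7.81% of all rows), 1 without pair 1 (2.87%), 8 without pair 2 (14%) and 2 without pair 3 (6.22%). Without M1 replicate 2 the median log2 fold change was -0.23, the lowest value with 1 library left out, and the highest was -0.013, for M1 + PBM replicate 1. For single genes, 443 values kept their direction and their side of the threshold, 30 newly passed it, 8 no longer did and 52 changed sign. With median-of-ratios scaling, with or without the block, these were Hk3 (-0.055), Rpe (-0.065), Pgd (-0.047), Pfkm (-0.020) and Gpi1 (-0.016), and with quantile normalization Rpe (-0.014), Pkm (0.066), Pfkm (-0.027) and Pgk1 (0.016). With the block they were Tpi1 (0.050), Hk3 (-0.0023), Rpe (-0.065), Aldoa (0.062), Pkm (0.13), Pgk1 (0.10) and Eno1 (0.059) without pair 1, Pfkm (-0.0080) without pair 2 and Taldo1 (-0.12), Pgd (-0.16), Pfkm (-0.068) and Gpi1 (-0.073) without pair 3. Leaving out 1 library gave a range of -0.058 to 0.081 for Rpe, -0.35 to 0.25 for Pkm, -0.12 to 0.16 for Gpi1, -0.19 to 0.031 for Rpia, -0.40 to 0.058 for Aldoc, -0.53 to 0.10 for Tpi1, -0.089 to 0.30 for Taldo1, -0.15 to 0.15 for Pgd, -0.039 to 0.28 for Pgls, -0.077 to 0.15 for Pfkm, -0.37 to 0.16 for Pgk1, -8.3e-05 to 0.054 for Hk3 and -0.52 to 0.0051 for Eno1. The cause was not tested. In M1 against M0, the 5 genes higher without overlap became 10 after median-of-ratios scaling and ranged from 5 to 10 (without M1 replicate 2) when 1 library was left out. The 10 lower became 6 after that scaling and ranged from 10 to 11 when 1 library was left out. With a mean FPKM of at least 5 (24 genes) 6 were lower, because Pfkm, Aldoc, Ldhb and Rpia did not reach that minimum. FPKM without counts limits the precision of low genes such as Slc2a3, Aldoc, Ldhb and Rpia.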

Other observations

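Among genes of sugar metabolism outside the 31, named after their values were seen, Slc2a6 had the widest difference between M0 and M1 that was noticed. It encodes a glucose transporter family member found in leukocytes and spleen. Its FPKM was 11.5, 3.25 and 23.4 in M0, 132, 155 and 149 in M1 and 119.9, 171 and 105.4 in M1 + PBM, a difference of 3.74 in log2(FPKM + 1) between M1 and M0 without overlap, and M1 overlapped M1 + PBM. In the stimulated libraries its FPKM was thus several times that of Slc2a1. Pdk1, a kinase that restrains pyruvate dehydrogenase in the mitochondrion, was lower in M1, with 8.77, 7.6 and 9.11 FPKM in M0, 2.1, 1.17 and 1.98 in M1 and 1.52, 1.29 and 2.25 in M1 + PBM. M0 and M1 stand in separate tables, and no test was made.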
